A study of Rattus norvegicus with 8 samples.

Results

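Transcripts of 6 metalloproteinase inhibitors, Timp1, Timp2, Timp3, Timp4, Reck and A2m, were compared between 4 rat vein grafts and 4 control jugular veins. They were taken by name from a table of 37209 gene rows, and all 6 had a row. Each animal was a Sprague Dawley rat, an outbred laboratory strain, with no genetic change named in the labels. The graft was a vein fixed over short cuffs between the divided ends of the left common carotid artery, so that it carried arterial blood, and it was collected 1 week after the operation. Control jugular veins came from the other side of the operated animals and stayed in the venous circulation, so no vein came from an animal without surgery. Age and sex are not given in the labels. Nothing in them says which graft and which control came from one animal, and p-values therefore measure only the spread between these samples. Total RNA of the whole vein was sequenced, and in such bulk samples fewer cells of a type and less RNA per cell cannot be told apart.

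Metalloproteinases are zinc-dependent enzymes that cut collagens, elastin, proteoglycans and cell surface proteins. The tissue inhibitors of metalloproteinases (TIMPs) are small secreted proteins that insert their amino-terminal end into the active site of the enzyme. TIMP1 acts mainly on soluble matrix metalloproteinases (MMPs). TIMP2 also takes part, together with the membrane enzyme MMP14, in the activation of pro-MMP2. TIMP3 binds to the matrix and, unlike the others, inhibits several ADAM and ADAMTS proteases, while TIMP4 has a narrow tissue distribution with high levels in heart. RECK is an inhibitor anchored to the cell membrane. Alpha-2-macroglobulin, the product of A2m, is a large plasma protein that traps proteases of every class, and in the rat it is a liver acute-phase protein. In vessel walls these inhibitors set limits to the matrix turnover that accompanies remodelling.

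The start regions of Timp1 and Timp3 are shown because these genes moved in opposite directions and the proteins differ in their targets. Promoter windows were found by symbol for 5 of the 6 genes in the RefSeq table of build GRCr8, and A2m was not among them. The 250 bases before the annotated start are given 5′ to 3′ on the gene's strand, with matches to the motifs named after them in capitals.
Timp1 at chrX:3771123-3771372, minus strand: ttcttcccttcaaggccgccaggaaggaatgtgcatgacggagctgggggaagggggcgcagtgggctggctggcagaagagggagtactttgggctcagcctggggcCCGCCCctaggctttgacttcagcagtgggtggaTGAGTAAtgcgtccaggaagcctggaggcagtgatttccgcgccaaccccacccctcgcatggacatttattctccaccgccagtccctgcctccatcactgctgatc
Timp3 at chr7:19459559-19459808, minus strand: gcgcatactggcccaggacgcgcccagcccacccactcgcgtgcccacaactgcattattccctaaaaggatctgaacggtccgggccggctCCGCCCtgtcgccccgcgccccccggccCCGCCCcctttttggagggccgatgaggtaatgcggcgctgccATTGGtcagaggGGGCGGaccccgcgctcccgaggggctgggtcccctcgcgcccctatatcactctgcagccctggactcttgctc

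Both strands were searched for 6 short motifs, the AP-1 consensus TGAGTCA, its variant TGAGTAA, the GC box GGGCGG, the TATA box TATAAA, the CCAAT box CCAAT and the STAT-type palindrome TTCNNNGAA. The Timp1 window held the AP-1 variant once, 108 to 102 bases before the start, and a GC box on the reverse strand. The AP-1 variant was in 2.38% of 33469 windows of this length and in none of the windows of Timp2, Timp3, Timp4 and Reck. GC boxes, found in 30.5% of all windows, were in those of Timp1, Timp2, Timp3 and Reck, with 3 matches each in Timp3 and Reck. The CCAAT box, found in 34% of all windows, was in those of Timp3 and Reck. The Timp4 window held no match to any of the 6 motifs. These matches describe the letters of the windows, and no measurement of binding was made in these samples.

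Total counts ran from 5981520 to 16061189 per library, lowest in control 4, so that 3 counts amount to 0.182 to 0.56 CPM (read counts scaled to a common library size with TMM factors). Of 15464 genes tested with edgeR's quasi-likelihood test, 3250 rose and 3288 fell in the grafts at a Benjamini-Hochberg adjusted p under 0.05. Without TMM factors, on library totals alone, 4558 rose and 2164 fell (67.8% against 49.7% of called genes that rose), and the median log2 fold change moved from 0.01 to 0.23, so changes are relative to the TMM scale. The tissue matched its label in its smooth muscle markers, which summed to 13210 to 21860 CPM in the controls and 1825 to 3490 CPM in the grafts. Sums of 7 skeletal muscle markers were uneven. They were 1519 CPM in control 3, 53.8 to 246 CPM in the other controls and 42 to 930 CPM in the grafts. The labels' extraction text names a brain region in place of a vein, while 7 neuronal and astrocyte markers summed to 1.58 to 7.6 CPM, with Neurod6 at 0 in all libraries. Adipocyte markers were highest in controls 3 and 4, and the test results and the ratios were therefore also computed without them.

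Of the inhibitors Timp1 and A2m rose, Timp3, Timp4 and Reck fell, and Timp2 did not pass, which makes 5 of 6 called against 42.3% of all genes tested. A2m entered the test only through its level in the grafts, so the count is a description. The share that rose among all genes was 21% and the share that fell 21.3%. CPM values of grafts and controls did not overlap for 4 of the 6 (Timp3, Timp4, Reck and A2m), against 40.6% of all genes. The median log2 fold change of the inhibitors was -0.33, between a lowest value of -2.51 for Timp4 and a highest of 6.12 for A2m. Without A2m, 1 of the other 5 rose, 3 fell and 1 did not pass, and their median was -0.73. The inhibitors as a set thus did not share a direction.

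**Figure D1:**
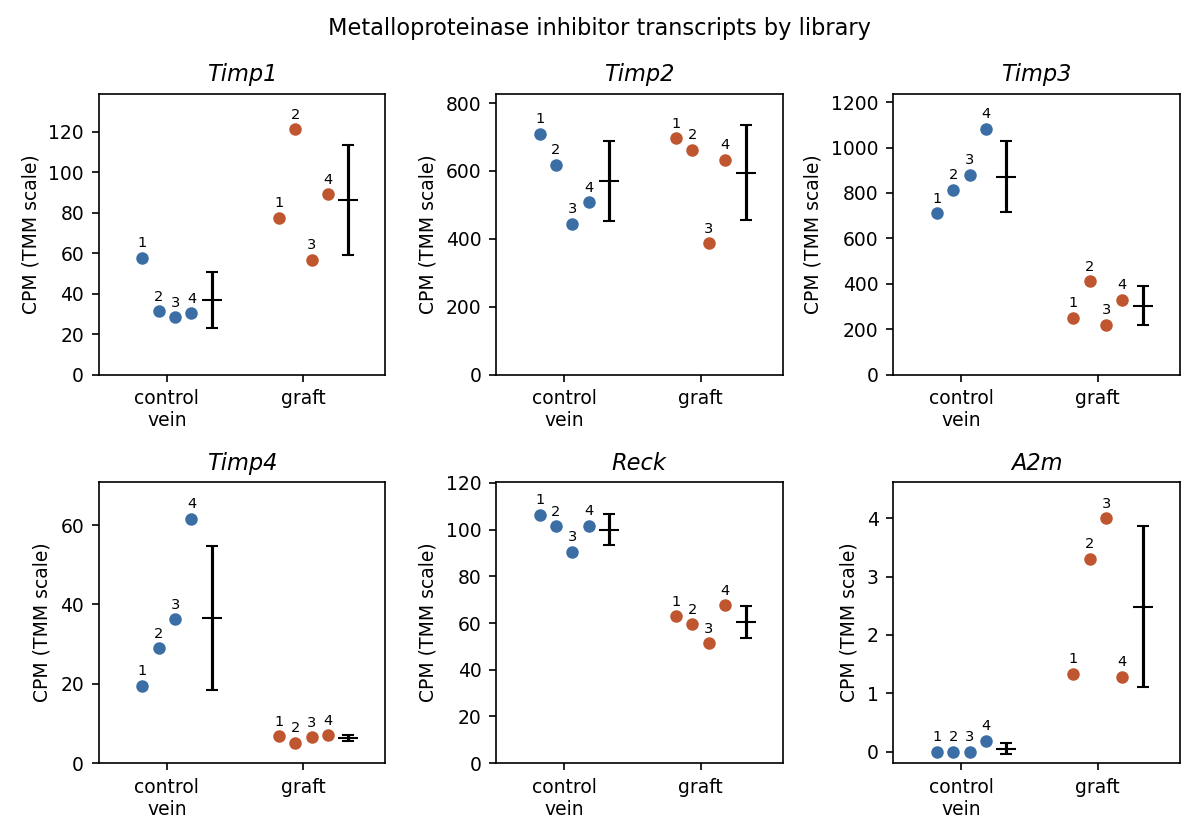
CPM on the TMM scale (vertical axes, from 0 or just under it) of the 6 inhibitor genes in control veins (blue) and grafts (orange), numbered as in the labels, with black bars for the mean ± SD of 4 libraries. Timp3, Timp4 and Reck lie lower in every graft than in every control, A2m lies higher, Timp2 lies in the same range in both groups, and Timp1 overlaps only through control 1 (57.8 CPM) and graft 3 (56.7 CPM).

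Timp1, the inducible soluble inhibitor, was higher in the grafts. Controls 1 to 4 held 57.8, 31.5, 28.3 and 30.4 CPM, and grafts 1 to 4 held 77.6, 121, 56.7 and 89.2 CPM. Control 1 stood apart from the other controls and slightly above graft 3, so the groups overlapped by that pair. The means were 37 ± 13.9 CPM (SD, n = 4) and 86.2 ± 27 CPM (SD, n = 4), and Timp1 rose 2.32-fold, a log2 fold change of 1.22 with an SE of 0.28 (edgeR adjusted p = 0.00739). The log2 fold change of Timp1 was higher than that of 87.9% of all genes tested, falls included. In size, regardless of direction, it was larger than that of 78.9%. With controls 3 and 4 left out, the log2 fold change was 0.95 and did not pass (edgeR adjusted p = 0.0771).

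Timp2, the inhibitor that also takes part in pro-MMP2 activation, did not pass the threshold. Its level was 710, 618, 444 and 508 CPM in controls 1 to 4 and 696, 662, 387 and 634 CPM in grafts 1 to 4. The highest library was a control, the lowest was a graft, and the ranges lay over each other. The difference on the log2 scale was 0.06 with an SE of 0.22 (edgeR adjusted p = 0.841), and it ran from -0.15 to 0.27 over 16 alternative fits.

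Timp3, the matrix-bound inhibitor with the widest reach over ADAM and ADAMTS enzymes, was lower in the grafts. Controls 1 to 4 held 710, 814, 880 and 1082 CPM and grafts 1 to 4 held 250, 411, 220 and 330 CPM. The highest graft was well under the lowest control. Means were 871 ± 157 CPM (SD, n = 4) and 303 ± 85.9 CPM (SD, n = 4). Timp3 fell by 1.53 in log2 units with an SE of 0.22 (edgeR adjusted p = 0.000602), and it passed in all 16 alternative fits, with log2 fold changes from -1.70 to -1.31.

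Timp4 had the largest fall of the inhibitors. Its levels were 19.5, 29, 36.2 and 61.6 CPM in controls 1 to 4, against 6.86, 5.18, 6.48 and 7 CPM in grafts 1 to 4. The controls spread widely, with a coefficient of variation (CV, SD over mean) of 49.3%, while the grafts lay close together at 13%. The log2 fold change was -2.51 with an SE of 0.33 (edgeR adjusted p = 0.000335), a level 5.68-fold lower. With controls 3 and 4 left out it was -1.92 (edgeR adjusted p = 0.00104), a smaller fall that still passed.

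Reck, the membrane-anchored inhibitor, was lower in every graft by a modest and even amount. Controls 1 to 4 stood at 106, 101, 90.5 and 102 CPM, and grafts 1 to 4 at 62.9, 59.4, 51.4 and 67.7 CPM. Replicates lay closer together than for most genes, with CVs of 6.7% in the controls and 11.3% in the grafts, against medians of 23.4% and 16.9% over all genes tested. Reck fell by 0.73 in log2 units with an SE of 0.12 (edgeR adjusted p = 0.00098), to a level 1.66-fold lower. It passed in all 16 alternative fits, with library totals alone giving the smallest fall at -0.51.

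A2m was almost without counts in the controls and at a low level in the grafts. Controls 1, 2 and 3 had 0 counts and control 4 had 1, while grafts 1 to 4 had 22, 44, 50 and 20 counts. In CPM this was 0.187 in control 4 and 1.34, 3.31, 4 and 1.28 in grafts 1 to 4. Grafts 2 and 3 were the higher pair. The ratio of summed counts, scaled to library size, was 95.7 (95% exact binomial interval 16.9 to 3805), which covers counting error only. A2m passed the low-count filter through the grafts alone, so its call (edgeR adjusted p = 0.000712) is no support beyond these counts. The fitted log2 fold change was 6.12 and went from 4.96 with limma voom to 8.06 with controls 3 and 4 left out, since it depends on how a group near 0 is treated.

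**Figure D2:**
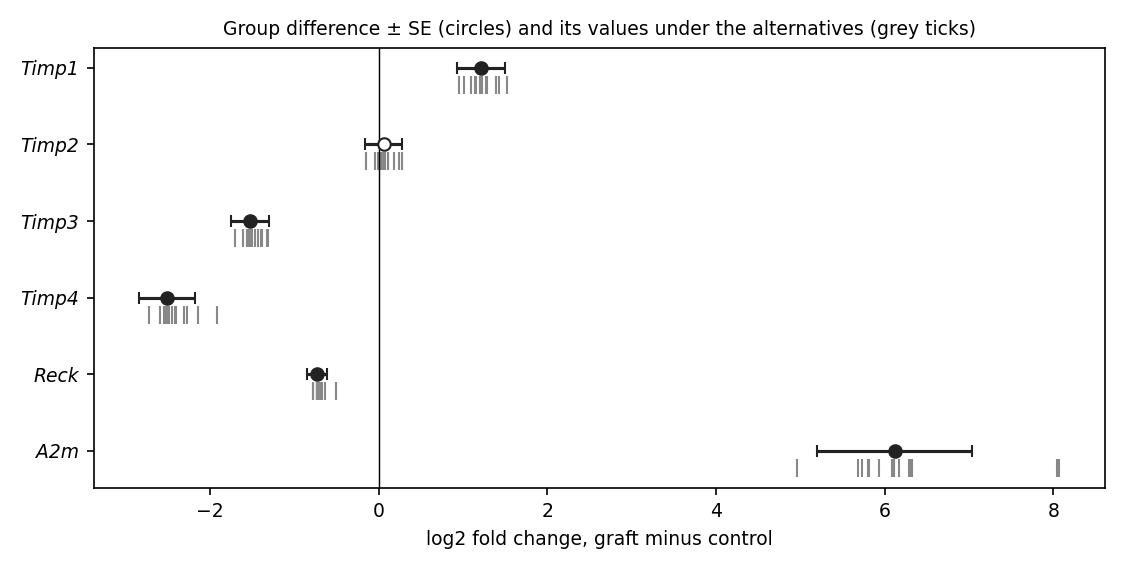
Log2 fold change, graft minus control (horizontal axis), of each inhibitor gene with its SE (circles with bars, filled where the adjusted p was under 0.05) and its values under 16 alternative fits (grey ticks). The ticks of Timp3, Timp4 and Reck stay below 0 and those of Timp1 and A2m above it, while those of Timp2 lie on both sides.

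The 4 Timp genes together made up a smaller part of the counts in the grafts, and their makeup differed. Summed Timp1 to Timp4 levels were 1388 to 1682 CPM in the controls and 670 to 1200 CPM in the grafts, with no overlap. Timp3 held the largest share of these counts in controls 2, 3 and 4, equalled Timp2 in control 1 (47.4% each), and was below Timp2 in every graft. Its share averaged 57.4% ± 7.98 (SD, n = 4) in the controls and 30.6% ± 4.42 (SD, n = 4) in the grafts. Timp2 went from 37.8% ± 8.1 to 60.1% ± 5.32 of the Timp counts, although its own CPM did not pass the test, because shares of one pool move together. Timp1 went from 2.45% ± 0.946 to 8.63% ± 1.08 and Timp4 from 2.38% ± 1.01 to 0.681% ± 0.219. Shares are of read counts, which longer transcripts gather more of, so they compare libraries and not the amounts of the 4 transcripts.

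**Figure D3:**
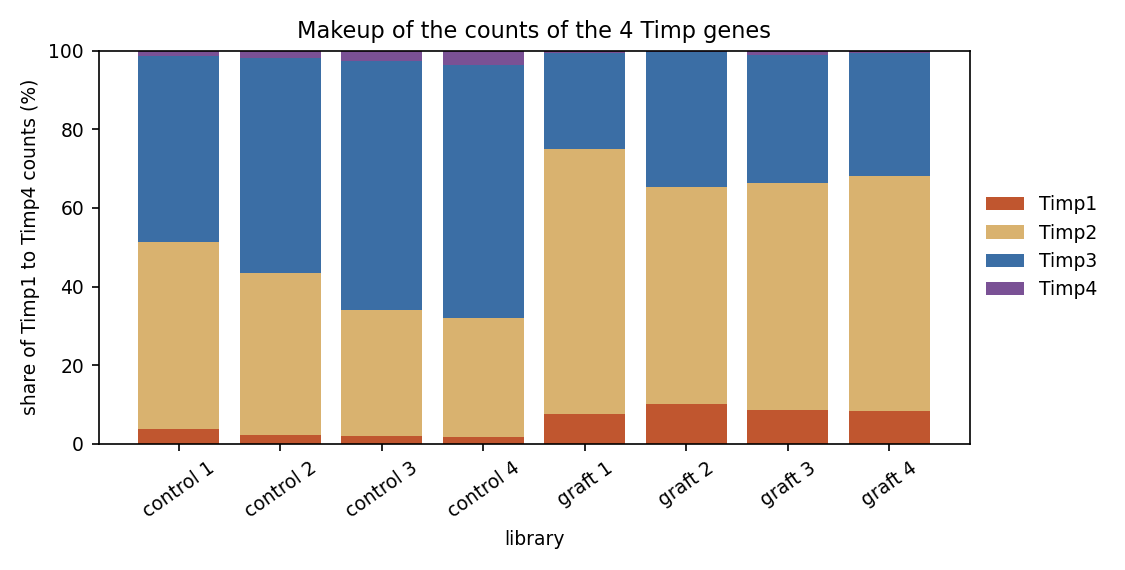
Share in percent (vertical axis, stacked to 100) that each of the 4 Timp genes takes of their summed counts, in each of the 8 libraries. Timp3 takes 47.4% to 64.3% in the controls and 24.3% to 34.3% in the grafts, and Timp2 takes 55.2% to 67.5% in the grafts.

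More genes rose than fell in each of 3 metalloproteinase families, which were listed by family and not by known inhibition of each member. Of 22 listed MMPs 14 were tested, of which 8 rose, 2 fell and 4 did not pass, a called share of 71.4% against 42.3% of all genes (21% rose and 21.3% fell). Their median was 1.14 in log2 units against 0.01 for all genes. However, 5 of the 14 (Mmp3, Mmp9, Mmp12, Mmp13 and Mmp25) passed the low-count filter through the grafts alone and Mmp27 through the controls alone. A difference in level was thus part of how they entered the test, and their calls are descriptions. Of the other 8, 3 rose, 1 fell and 4 did not pass, and their median was 0.56. Control veins held 110 ± 49 CPM of Mmp27 and grafts 0.61 ± 0.453 CPM (SD, n = 4 each). Mmp12, the macrophage elastase, stood at 0.294 ± 0.322 and 309 ± 230 CPM. The MMP rises numbered 5 with limma voom, and the falls 1 without control 1, graft 2 or graft 4 or on library totals alone and 3 without control 3. Of 8 tested ADAM proteases 5 rose and 2 fell (87.5% called, against the same 42.3%, with a median of 0.71). Adam12, which has roles in muscle and fibrosis, rose by 3.54 in log2 units with an SE of 0.29 (edgeR adjusted p = 3.47e-05), and Adam10, a sheddase that cuts Notch receptors, fell by 1.29 with an SE of 0.23 (edgeR adjusted p = 0.00164). Of 18 tested ADAMTS proteases 7 rose and 11 did not pass. The called share of 38.9%, all of it rises, is close to the 42.3% among all genes, of which 21% rose and 21.3% fell. None of the ADAMTS genes fell by edgeR, DESeq2 or limma voom (1 at an unadjusted p under 0.05 by edgeR), while 1 fell with a replicate block or without control 1. The gene with the unadjusted p under 0.05 was Adamts20, which passed the low-count filter through the controls alone (edgeR adjusted p = 0.0858). Adamts4, which cuts aggrecan and versican, and Adamts16 had the smallest p, and rose by 3.19 and 2.75 in log2 units with SEs of 0.21 and 0.26 (edgeR adjusted p = 2e-05 and 5.77e-05).

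Ratios of an enzyme's counts to those of an inhibitor within one library need no scaling between libraries, and 6 enzyme pairs are given as descriptions without a test. Mmp14, the membrane enzyme that uses TIMP2 as a bridge to pro-MMP2, stood at 0.458 to 0.705 counts per Timp2 count in the controls and 1.62 to 2.16 in the grafts. The ratio of Mmp2 (gelatinase A) to Timp2 was 1.42 to 1.77 in the controls and 2.11 to 2.93 in the grafts. Mmp2 itself rose by 0.66 in log2 units with an SE of 0.22 (edgeR adjusted p = 0.0356), but it did not pass with controls 3 and 4 left out (edgeR adjusted p = 0.258), nor without graft 1, 2 or 4 or control 2, 3 or 4 (0.0516 to 0.0965).

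Set over Timp3, which itself fell, the counts of Adam17, Adamts4 and Adamts5 stood higher in the grafts. Adam17, the sheddase that releases TNF, had 0.132 to 0.195 counts per Timp3 count in the controls and 0.543 to 0.862 in the grafts. For Adamts5, an aggrecanase, the ratio was 0.0692 to 0.115 in the controls and 0.258 to 0.485 in the grafts. Adamts5 itself differed by 0.28 in log2 units with an SE of 0.12 and did not pass (edgeR adjusted p = 0.0895), against -1.53 for Timp3. It passed on library totals alone (0.51, edgeR adjusted p = 0.015), with upper-quartile factors (0.0478) and without graft 1 (0.0481). Adamts4 per Timp3 went from 0.0039 to 0.00866 in the controls to 0.0926 to 0.22 in the grafts. The Mmp9 (gelatinase B) to Timp1 ratio was 0.00614 to 0.0169 in the controls and 0.302, 1.5, 0.185 and 0.435 in grafts 1 to 4, where Mmp9 had 23.5, 182, 10.5 and 38.8 CPM. Graft 2 thus had both the most Mmp9 and the most Timp1. Within the inhibitors, Timp1 per Timp3 count was 0.0281 to 0.0814 in the controls and 0.258 to 0.31 in the grafts. None of these 7 ratios overlapped between the groups, and among single genes 40.6% did not overlap. No such share was computed for other gene pairs. Timp3 by itself was already lower in every graft, and Mmp9 passed the low-count filter through the grafts alone, so the count of ratios is a description. The ratio of Adam10 to Timp3, added after its values were seen, was 0.112 to 0.207 in the controls and 0.143 to 0.231 in the grafts and did overlap.

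**Figure D4:**
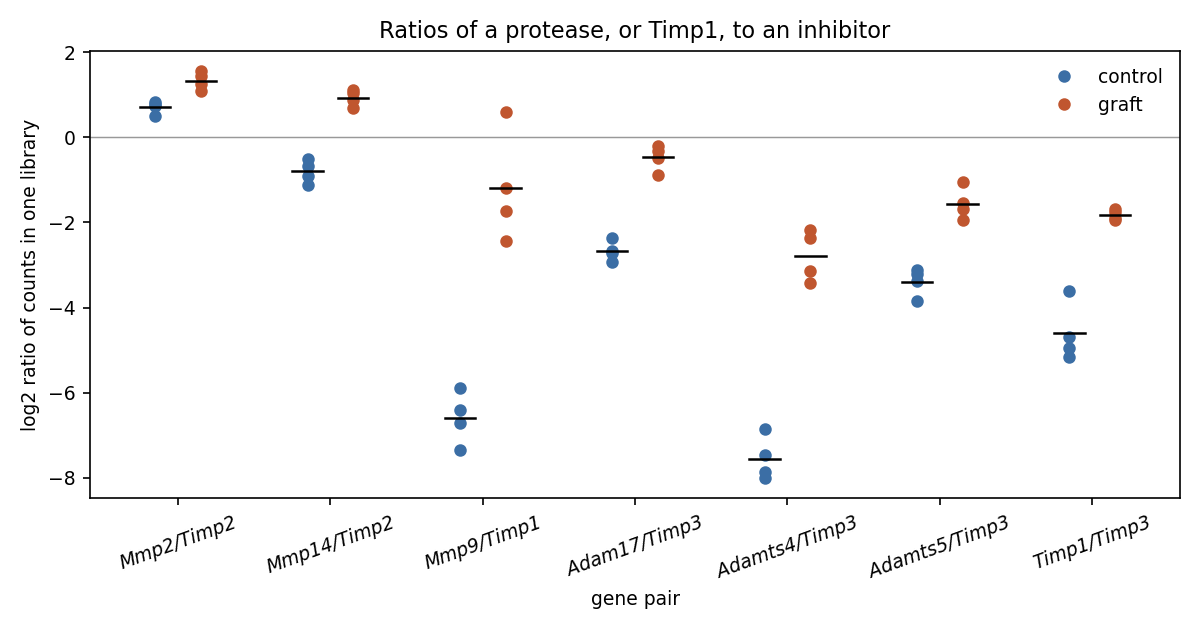
Log2 of the ratio of counts of 2 genes within one library (vertical axis) for 6 enzyme to inhibitor pairs and for Timp1 to Timp3 (horizontal axis), with 4 control libraries in blue, 4 grafts in orange and black lines for the group means. Grafts lie above controls for each pair, by 0.62 for Mmp2/Timp2 up to 5.39 for Mmp9/Timp1 on the log2 scale.

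Receptors and binding partners of the inhibitors did not move one way. Of 9 tested, 2 rose, 4 fell and 3 did not pass, a called share of 66.7% against 42.3% of all genes (21% rose and 21.3% fell), and the median was -0.08 in log2 units. Lrp1, the endocytic receptor that clears alpha-2-macroglobulin complexes and TIMPs, rose by 0.84 with an SE of 0.19 (edgeR adjusted p = 0.00649, and 0.0704 with controls 3 and 4 left out). Its level went from 1638 ± 371 to 2933 ± 242 CPM (SD, n = 4 each). Igf1r, the receptor for insulin-like growth factor 1, fell by 1.33 with an SE of 0.16 (edgeR adjusted p = 0.000218). The number called was 3 without control 2, 3 or 4 or without graft 1 or 2, 4 without graft 3 or 4, 4 with library totals alone or upper-quartile factors, and 2 with controls 3 and 4 left out. Among the relatives of A2m, the 8 listed names gave 6 rows, of which 1 was tested. That gene, Cd109, a membrane-bound member of the family, rose by 1.54 with an SE of 0.25 (edgeR adjusted p = 0.00107). Mug1 and Mug2, liver proteins of the same family, had 0 counts in all libraries.

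The levels of 3 of the inhibitors were set beside markers of cell types that a vein sample can hold. Among the controls, Timp4 and Timp3 both had the order of the adipocyte markers: these 9 genes summed to 507, 794, 2238 and 2603 CPM in controls 1 to 4, while Timp4 went from 19.5 to 61.6 CPM and Timp3 from 710 to 1082 CPM. In the grafts the adipocyte sum was 137 to 179 CPM, and all 9 markers fell. Of these, Adipoq, Plin1, Cidec, Lep and Pck1 passed the low-count filter through the controls alone, so their calls are descriptions. The part of adipocytes in the falls of Timp4 and Timp3 was not tested. Smooth muscle markers (9 of 9 fell) were lower in the grafts, as Timp3 was, and among the controls their order differed from that of Timp3, with the lowest sum, 13210 CPM in control 3, beside the second highest Timp3 level. Endothelial markers summed to 2981 to 4807 CPM in the controls and 1351 to 1676 CPM in the grafts (4 of 8 fell), and fibroblast markers to 4335 to 6093 and 2352 to 5419 CPM (2 of 6 fell and 1 rose). Vwf was the largest part of the endothelial sum, at 2207 and 479 CPM as group means, while Cdh5, Tie1, Egfl7 and Erg did not pass. Among all genes tested 21.3% fell and 21% rose, and the fibroblast counts, near these shares, are given as a description. The part of smooth muscle cells, endothelial cells and fibroblasts in the falls of Timp3 and Reck was not tested.

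Macrophage markers (9 of 9 rose, against 21% of all genes tested) summed to 214 to 313 CPM in the controls and 1076 to 1648 CPM in the grafts. T cell markers (5 of 5 tested rose) summed to 2.24 to 11.5 and 28.4 to 71.3 CPM. Of 5 mesothelial markers 2 were tested and both rose. Their sum, 0.15 to 0.92 CPM in the controls and 48.8 to 77.1 CPM in the grafts, was nearly all Msln (43.7 to 71.5 CPM in the grafts), while Krt19 stood at 0.46 and 0.63 CPM and Upk3b at 0.0188 CPM or less as group means. Of the T cell genes, Cd3e, Cd3d, Cd3g and Cd2 passed the low-count filter through the grafts alone. The mesothelial genes Msln and Wt1, at 0 CPM in every control, did so too, and these calls are descriptions. The part of macrophages, T cells and mesothelial cells in the rises of Timp1 and A2m was not tested. Control 1, the control with the most Timp1, had the lowest macrophage and mesothelial sums of the controls and the second highest T cell sum (9.29 CPM). This is 1 library, and its bearing on Timp1 was not tested. For hepatocytes, the source of plasma alpha-2-macroglobulin, the marker sum was 5.97 to 19.8 CPM in the controls and 0.193 to 0.607 CPM in the grafts, and albumin (Alb) had 0 CPM in all 4 grafts. Of the 7 hepatocyte markers, Tat, Fga and Fgb had 0 counts in all libraries.

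**Figure D5:**
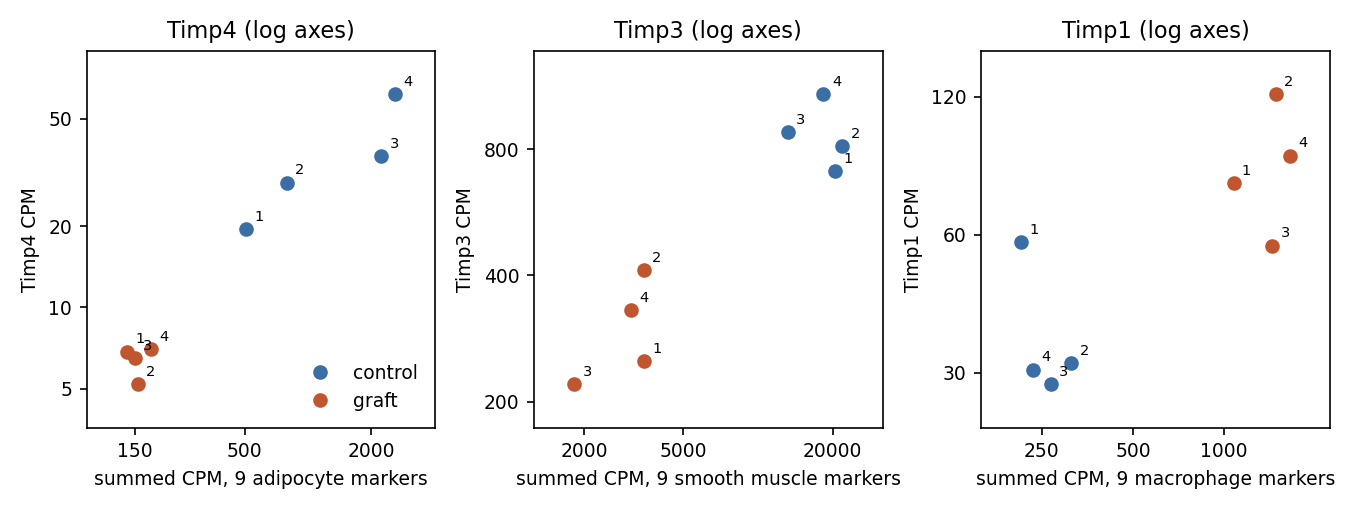
CPM of Timp4, Timp3 and Timp1 (vertical axes, log scale) against the summed CPM of 9 adipocyte, 9 smooth muscle and 9 macrophage markers (horizontal axes, log scale), with controls in blue and grafts in orange, numbered as in the labels. Timp4 has the same order as the adipocyte sum among the 4 controls, from 19.5 CPM at 507 to 61.6 CPM at 2603, and the Timp3 panel and the Timp1 panel, drawn against other markers, show another order among the controls.

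Of the Timp genes, 3 lie inside the spans of synapsin genes (Timp1 in Syn1, Timp4 in Syn2, Timp3 in Syn3). Only gene spans were compared and not exons, so whether the counted regions overlap was not checked. The strand setting of the counting is not given in the sources used here. In the RefSeq table of GRCr8 each of these spans enclosed the Timp gene whole. The synapsin rows held few counts, 0 to 13 per library for Syn1, 0 to 2 for Syn2 and 1 to 12 for Syn3, too few to pass the low-count filter. Timp2 overlaps Cep295nl in that table, a name with no row of its own in the count table.

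For each inhibitor the genes with the most similar profile were found by the root-mean-square difference of log2 CPM over the 8 libraries, each gene centred on its own mean, among 10998 candidates (10999 for A2m). Reck had the closest neighbours, Akap1, an anchor of protein kinase A at mitochondria, at 0.057 and Rassf8 at 0.0615. Timp2 was nearest to Rcn3 (0.128) and Rhoq (0.13), Timp4 to Retsat, retinol saturase (0.156), and Slc7a15 (0.223), and Timp3 to Net1, an activator of RhoA (0.186), and the co-chaperone Dnajb4 (0.202). Timp1 was nearest to Emp3 (0.184) and to the metalloproteinase Mmp19 (0.19), which rose by 1.34 in log2 units with an SE of 0.20 (edgeR adjusted p = 0.000671). A2m, with the largest distances, was nearest to the chemokine receptor Cxcr6 (0.295) and to the histone gene Hist2h3c2 (0.365). The log2 CPM used here holds a prior count of 2, which lifts the control values of A2m, at 0 or 1 count. The fitted log2 fold changes were 6.1 for A2m, 3.7 for Cxcr6 and 4.3 for Hist2h3c2. By the same measure the inhibitors lay 0.443 (Timp2 and Reck) to 3.04 (Timp4 and A2m) from each other. Timp3 lay 0.498 from Reck and 0.595 from Timp4. Each nearest gene was the closest of 10998 or 10999 candidates, so these distances cannot be set against those of the nearest genes.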

How the data were processed

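The authors deposited unnormalized whole-number read counts, 1 row for each gene and 1 column for each of the 8 sample titles. Per the submitters' processing notes, HISAT2 2.0.4 and the build Rnor_6.0 were used. Which counter and annotation were used, and with what strand setting, is not given in the sources used here. Without strand, reads in regions that overlapping genes share are not told apart, and reads shared by close relatives such as A2m and Pzp may have been split or dropped.

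The tests ran in edgeR 4.0.16 under R 4.3.3: filterByExpr (minimum count 10), TMM factors, glmQLFit and glmQLFTest, unpaired, with Benjamini-Hochberg adjustment over all 15464 genes tested and a threshold of 0.05. The genes kept held 99.1% to 99.9% of each library's counts. SEs are the absolute log2 fold change over the square root of F. No 2 libraries of one group agreed within sampling noise, so none was taken for a repeat deposit. Alternatives were DESeq2 1.42.0, limma 3.58.1 (voom), other scalings, no filter, a replicate block and libraries left out. The procedure was tested on simulated counts of 15444 genes for this comparison. It found 2.99% of the 1.5-fold, 28.4% of the 2-fold and 75.8% of the 4-fold changes, and 6.58% of 76 calls were wrong. Only 67, 67 and 66 genes were given these changes, while 6538 genes were called in the data. With so few changed genes the adjustment is stricter, so these rates need not hold for this comparison.

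The inhibitors, the gene lists and the rule for named genes were chosen with earlier results of these data known. The rule names all inhibitors, the 2 genes of each list with the lowest p-values (1 that rose and 1 that fell where such genes passed), the enzymes of the ratios, the synapsin genes and the 2 nearest profiles of each inhibitor. Marker genes were summed as lists. Genes reached by a table synonym were looked up in RefSeq.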

Additional observations from a re-analysis of the deposited data

Results flagged for a closer look

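In 66 groups of 4 libraries checked for a value far from the other 3 (Dixon's gap ratio above its 95% critical value, which chance exceeds in about 5% of groups), 4 were found. Timp1 stood at 57.8 CPM in control 1, against 28.3 to 31.5 CPM in the other controls, and its share of the Timp counts was 3.86% there, against 1.81% to 2.11%. A2m had 0.187 CPM in control 4, which is 1 count, against 0 in the other controls. Mmp9 reached 182 CPM in graft 2, against 10.5 to 38.8 CPM in the other grafts. The log2 fold change of Mmp9 was 6.96 with all libraries and 5.59 without graft 2.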

How the results depend on the processing

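Timp3, Timp4 and Reck kept their direction and stayed past the threshold in all 16 alternatives. A2m did too, but against a group with at most 1 count. Timp1 passed with the same direction in 15, and with controls 3 and 4 left out it was at 0.95 (edgeR adjusted p = 0.0771). That fit has only 2 controls. Timp2 passed in none, and its log2 fold change was -0.15 with controls 3 and 4 left out and -0.0456 (without control 3) to 0.24 (without graft 3) with 1 library left out. The number of partners called was 2 with controls 3 and 4 left out and 3 to 6 with 1 library left out, where the cause was not tested. Of the genes with a profile like that of Timp2, Rcn3 stood at -0.0655 and Rhoq at -0.0407 with controls 3 and 4 left out. Over all genes, 4778 to 7840 were called across the alternatives.

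With the title number as a replicate block 5902 genes were called in place of 6538, and the same 5 inhibitors passed. Same-numbered grafts and controls deviated together weakly (correlations of -0.07, 0.18, 0.07 and 0.05 for numbers 1 to 4), and not every library correlated best with its own number, so the numbers are not taken as pairs. Depth limits A2m most, with 1 count in all controls together and 20 to 50 counts in each graft.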

Other observations

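Timp2 and Timp3 have the same count, 9474, in control 1. The rows differ in the other 7 libraries (6206 and 8174 in control 2, for example), so they are not copies of each other.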
